A study of Mus musculus with 18 samples.

Results

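The genes described here are 7 mouse phosphodiesterase genes whose enzymes break down the second messenger cyclic AMP: Pde4a, Pde4b, Pde4d, Pde3b, Pde7a, Pde2a and Pde8a. They were taken by symbol from 52506 genes that all 3 deposited count tables list, and each of the 7 was found in each table. RNA came from cultured T cells of wild type mice that were made from CD4+ T cells of spleen and lymph node by conversion to double negative T (DNT) cells, a T cell state without CD4 or CD8. All 18 libraries came from cells given anti-CD3/CD28 antibody, and they form 6 groups of 3, in sets of 6 libraries with 1 table each. The ATPgs set holds WT (antibody only) and WTATPgs (antibody with 400 µM ATPgs, an analogue of ATP that the submitters call non-hydrolysable). The adenosine set holds DNT (antibody only) and ADO (antibody with 400 µM adenosine). The inhibitor set holds R (antibody with 250 nM of an A2aR inhibitor, A2aR being the adenosine A2a receptor) and RA (the same inhibitor with 400 µM adenosine). Each ligand was present for 6 h. The study asked what purinergic signals do to converted DNT cells. The labels name neither the inhibitor nor the number of animals or cultures, so the p-values below measure the spread between these libraries, which may be technical.

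Adenosine binds A2a receptors that couple through a stimulatory G protein to adenylyl cyclase, which makes cyclic AMP. Cyclic AMP activates protein kinase A, which phosphorylates the transcription factor CREB, and in T cells a rise in cyclic AMP restrains signalling from the antigen receptor. Phosphodiesterases end the signal by hydrolysing cyclic AMP. The PDE4 enzymes are specific for cyclic AMP, and protein kinase A both activates their long forms and, in several cell types, raises transcription of PDE4 genes, a known feedback loop. PDE3B is a membrane-bound enzyme that cyclic GMP inhibits, PDE7A and PDE8A are cyclic AMP-specific enzymes of high affinity, and PDE2A is an enzyme for both cyclic nucleotides that cyclic GMP stimulates.

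The genes lie on 5 chromosomes of GRCm38 (GENCODE M21). Pde4a (ENSMUSG00000032177) spans chr9:21165714-21213248, Pde4b (ENSMUSG00000028525) chr4:102087543-102607259 and Pde4d (ENSMUSG00000021699) chr13:108449948-109953461, all on the plus strand. Pde3b (ENSMUSG00000030671) spans chr7:114415281-114539251, Pde2a (ENSMUSG00000110195) chr7:101421691-101512827 and Pde8a (ENSMUSG00000025584) chr7:81213596-81334533, also on the plus strand. Pde7a (ENSMUSG00000069094) lies on the minus strand at chr3:19223108-19311322. Exons of Pde7a overlap an antisense gene, Gm16093, which had at most 15 counts in a library. An intron of Pde4d holds a ribosomal protein pseudogene on the same strand, Rps3a3, which had up to 1316 counts but shares no exon with Pde4d.

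The promoter sequences below are shown because Pde4b, Pde4d and Pde8a are the ones of the 7 genes with the largest changes with ATPgs, and because CREB is known to bind TGACGTCA and, more weakly, its partial site TGACG. RefSeq promoter windows of GRCm38.p6, each from 250 bases before a transcription start to 50 bases after it, matched 5 of the 7 genes with 14 windows. Each line gives the 120 bases before a start, 5′ to 3′ on the plus strand, and capitals mark TGACG or its reverse complement CGTCA. Pde4a is added as a PDE4 gene that did not rise. For Pde4b and Pde4a, which have several windows, the line shown is the only window of the gene with TGACG or CGTCA. The printed lines therefore do not show how often these letters occur.
Pde4b, chr4:102421435-102421554: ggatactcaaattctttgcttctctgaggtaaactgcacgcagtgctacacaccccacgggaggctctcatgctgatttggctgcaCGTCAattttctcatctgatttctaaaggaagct
Pde4d, chr13:108654057-108654176: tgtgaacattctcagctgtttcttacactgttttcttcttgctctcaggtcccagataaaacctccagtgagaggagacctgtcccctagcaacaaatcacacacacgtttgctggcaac
Pde8a, chr7:81213145-81213264: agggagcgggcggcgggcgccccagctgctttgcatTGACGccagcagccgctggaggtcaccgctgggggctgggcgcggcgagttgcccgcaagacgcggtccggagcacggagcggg
Pde4a, chr9:21183981-21184100: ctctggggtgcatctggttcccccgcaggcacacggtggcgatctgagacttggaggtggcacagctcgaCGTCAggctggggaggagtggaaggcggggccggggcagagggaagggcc

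On either strand, TGACG was found in 4 of the 14 windows, against 20.8% of all 32851 windows of this length. Its first base lay at -34 in 1 of 4 Pde4b windows, at -84 in the Pde8a window, at -50 in 1 of 3 Pde4a windows and at 15 in 1 of 5 Pde2a windows. The full site TGACGTCA, which contains TGACG, was in 0 of 14 windows and in 1.79% of all windows. TGANTCA, the letters that AP-1 factors bind, was also in 0 of 14, and in 7.81% of all windows. Pde4d has 20 annotated transcripts and Pde4b has 13, so these windows cover only some of their starts, and the counts are per gene and do not say which start was used.

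Total counts ran from 20156082 to 24331577 per library. All 10 T cell markers listed for a check of the cell type were above 1 CPM (counts scaled to the library total and TMM factors of the own set) in every library. Cd4 had group means from 0.413 CPM in RA to 9.33 CPM in WT, and Cd8a from 5.66 CPM in WTATPgs to 23.5 CPM in DNT, so transcripts of both were present in cells described as lacking the proteins. Some libraries stood apart. Summed CPM of 14 macrophage, monocyte and neutrophil markers was 219, 225 and 57.5 in the 3 WTATPgs libraries, against 50.4 to 56.2 in WT. The B cell markers also differed, with 171, 166 and 51.4 in WTATPgs against 96.8 to 103 in WT. The macrophage, monocyte and neutrophil sum differed between DNT (13.5 to 16.4) and ADO (22.1 to 26.1) as well. Ribosomal protein genes took 10.4% to 15.8% of the counts in R and 11.7% to 12.4% in RA, against 4.72% to 5.39% in the other 12 libraries, and the mitochondrially encoded genes took 3.14% to 5.47% in R. No pair of replicates in any group agreed within sampling noise, and the R libraries differed most from each other. Each set was normalised on its own, so levels given side by side across sets are descriptions, and set, ligand and inhibitor cannot be told apart in them.

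**Figure D1:**
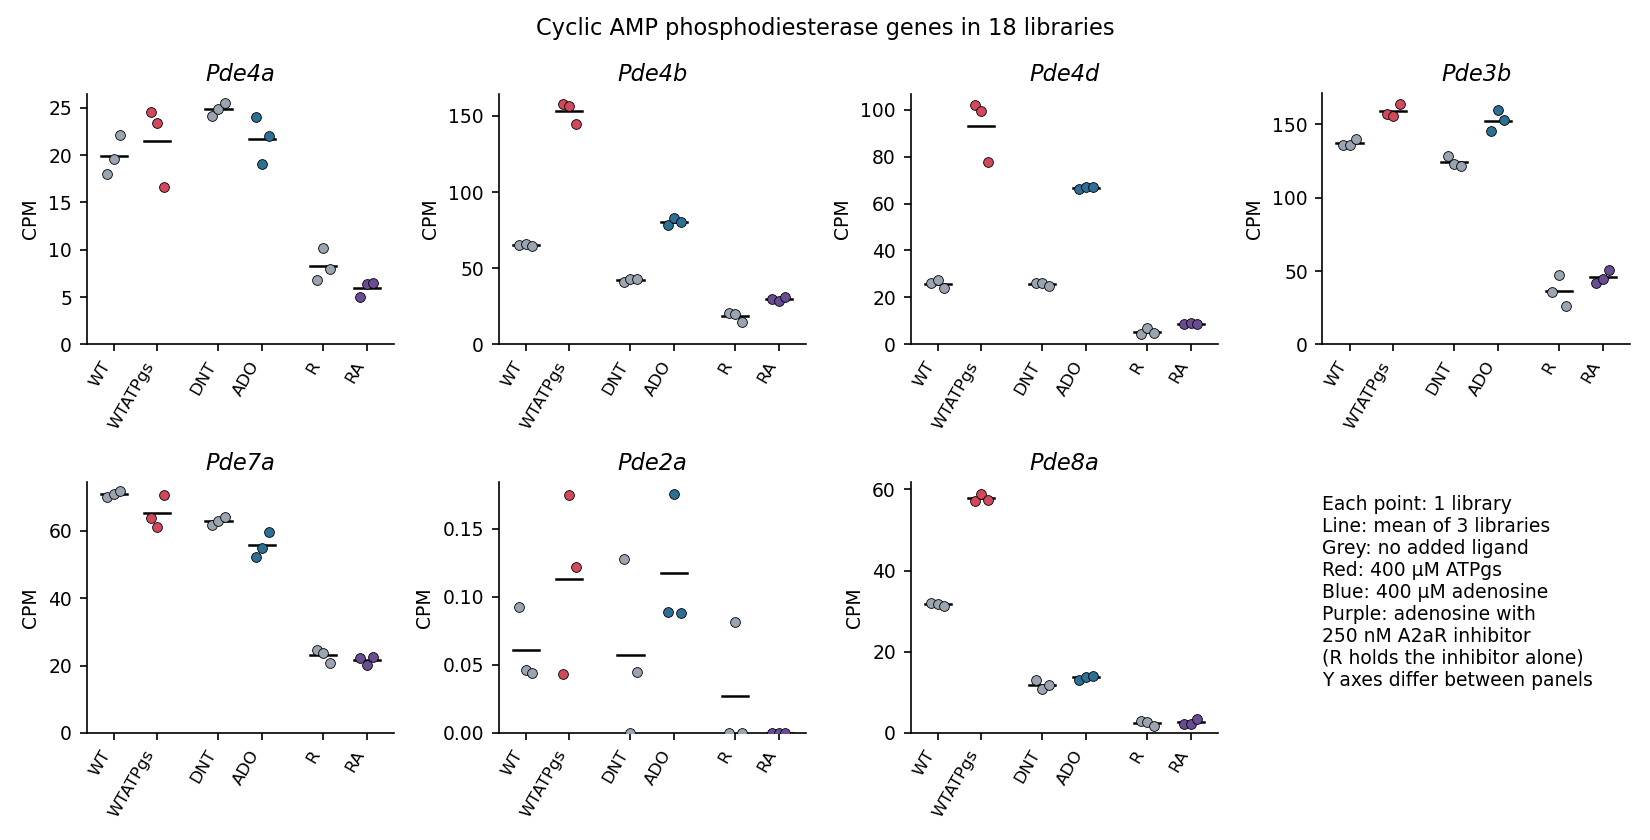
CPM of each gene in the 18 libraries (1 point per library, line at the mean of 3), with a separate linear y axis starting at 0 for each gene. Pde4b and Pde4d are higher in WTATPgs than in WT and in ADO than in DNT with no overlap, Pde8a is separated in the ATPgs set and overlaps in the other sets, and Pde2a stays at or below 0.176 CPM.

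Read per length of merged exons, Pde3b was the leading transcript of the 7. In CPM per kb of merged exons, Pde3b had the highest mean in every group, from 3.98 ± 1.16 (SD, n = 3) in R to 17.4 ± 0.491 in WTATPgs, and in R its range overlapped that of the next gene, Pde7a. In WT the order after Pde3b (15.1 ± 0.231) was Pde7a (9.16 ± 0.125), Pde8a (7.83 ± 0.103), Pde4b (6.18 ± 0.0776), Pde4a (2.60 ± 0.272) and Pde4d (2.15 ± 0.142), and no neighbours overlapped. In WTATPgs, Pde4b (14.5 ± 0.676) and Pde8a (14.3 ± 0.244) followed Pde3b and overlapped each other. Pde7a and Pde4d overlapped after them. In DNT the order was Pde3b, Pde7a, Pde4b, Pde4a, Pde8a and Pde4d, and only Pde4a and Pde8a overlapped. In ADO, Pde4b (7.62 ± 0.210) stood second and overlapped Pde7a (7.19 ± 0.487), while Pde4d (5.56 ± 0.0271) had moved above Pde8a and Pde4a. The order depends on the length used. Divided by the longest transcript, Pde4b in WTATPgs came to 35.6 CPM per kb, above Pde3b at 24.2.

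Across the groups the 7 genes together were highest with ATPgs. Their summed CPM per kb was 43.0 ± 0.401 in WT and 65.2 ± 1.36 in WTATPgs, 34.1 ± 0.348 in DNT and 43.3 ± 1.13 in ADO, and 10.9 ± 1.95 in R and 12.8 ± 0.939 in RA. The groups within the ATPgs and adenosine sets did not overlap. Those of the inhibitor set overlapped with merged exons as the length. With the longest transcript as the length R and RA did not overlap, at most 20.18 in R and at least 20.43 in RA. The 3 PDE4 genes made up 25.4% ± 0.347 of the sum in WT and 38.4% ± 2.83 in WTATPgs, and 27.6% ± 0.764 in DNT and 37.0% ± 1.14 in ADO. In the inhibitor set their share was 30.4% ± 1.73 in R and 33.8% ± 1.25 in RA. The libraries there were only just separate, at most 32.36% in R and at least 32.37% in RA. With the longest transcript as the length the PDE4 shares in WT, WTATPgs, DNT and ADO were 38.7%, 55.5%, 39.9% and 52.4%. By that length they were 43.0% in R and 48.05% in RA, with no overlap. The share of Pde3b fell in the ATPgs set, from 35.1% ± 0.356 to 26.8% ± 1.31, and was 40.0% ± 0.828 in DNT and 38.6% ± 1.04 in ADO. With the longest transcript it was lower with both ligands and without overlap. It was then 31.6% in WT and 21.6% in WTATPgs, and 35.4% in DNT and 31.0% in ADO. These sums and shares carry no test.

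**Figure D2:**
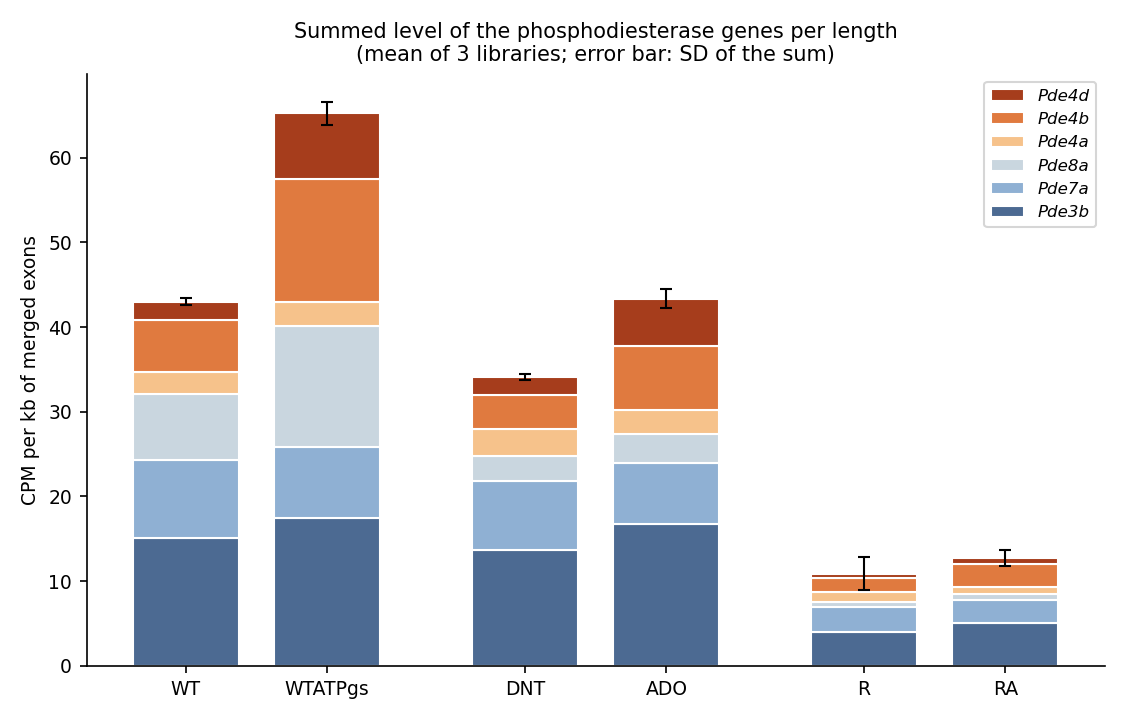
Mean CPM per kb of merged exons of 6 genes, stacked per group, with the SD of the sum over 3 libraries as the error bar. Pde2a, at most 0.0191 CPM per kb in any group mean, is too low to draw; the sum is 65.2 in WTATPgs against 43.0 in WT, and the orange and red PDE4 blocks make up 38.4% against 25.4% of it.

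Of the 7 genes, 6 had counts enough to be tested in every comparison, and Pde2a in none. With ATPgs, 4 of the 6 rose and none fell, on a background in which 37.1% of the 15124 genes tested were called (17.7% higher, 19.4% lower). With adenosine 3 rose and 2 fell, where 50.2% of 14512 genes were called (25.5% higher, 24.6% lower). Under the inhibitor 0 of 6 passed, where 1.14% of 12873 genes were called (0.287% higher, 0.855% lower). Each call is an adjusted p under 0.05 from edgeR's quasi-likelihood test, which compares the 3 ligand libraries with the 3 others of the set. The libraries of the groups did not overlap for 4 of the 6 genes with ATPgs, 5 with adenosine and 3 under the inhibitor, as for 51.3%, 55.8% and 20.9% of all genes tested. The background shares of the ATPgs and adenosine sets are large, so the sizes of the changes say more about these genes than the calls. The median log2 change of the 6 genes was 0.54 with ATPgs, 0.25 with adenosine and 0.21 under the inhibitor, beside medians over all genes tested of -0.0006, 0.0022 and -0.036. In bulk RNA a fall cannot be told apart from fewer cells that make the transcript, nor a rise from more of them.

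**Figure D3:**
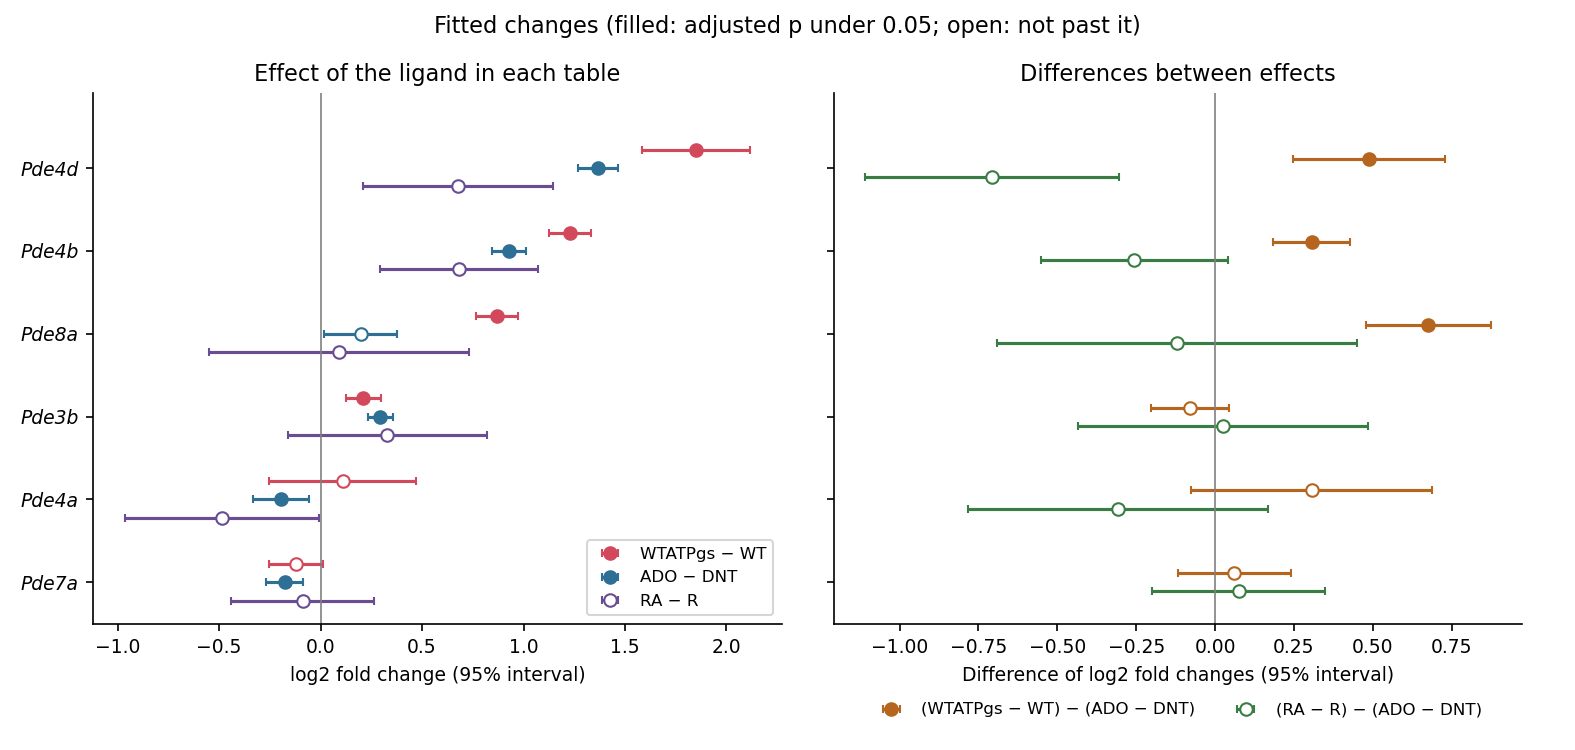
Fitted log2 fold changes with 95% intervals for the 6 tested genes (left, one colour per set) and the differences between those changes (right); filled points have an edgeR adjusted p under 0.05. Pde4d and Pde4b have the largest values in the ATPgs and adenosine sets, Pde8a is past the threshold in the ATPgs set only, and the intervals of the inhibitor set are the widest.

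Pde4d and Pde4b, which encode PDE4 enzymes specific for cyclic AMP, changed most. Pde4d had 26.1, 27.4 and 24.0 CPM in the WT libraries and 102.0, 99.5 and 77.8 CPM in WTATPgs. In the adenosine set it had 26.2, 26.4 and 24.99 CPM in DNT and 66.3, 66.9 and 66.8 CPM in ADO. Every ligand library stood above every library without ligand, and WT and DNT, the groups with antibody only, overlapped. Pde4d rose 3.61-fold with ATPgs, a log2 change of 1.85 ± 0.11 (SE, edgeR adjusted p = 3.59e-05), and 2.58-fold with adenosine, a log2 change of 1.37 ± 0.05 (edgeR adjusted p = 5.57e-29). Only 1.46% of the genes tested in the ATPgs set, and 1.67% in the adenosine set, had as large a change in either direction. WTATPgs replicate 3 was the lowest of its group for Pde4d. It was also the library whose macrophage, monocyte and neutrophil markers lay near the WT range, and the part of those cells in the Pde4d values was not tested. Without it the log2 change was 1.96.

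Pde4b had 65.0, 66.2 and 64.7 CPM in WT and 157.6, 156.8 and 144.8 CPM in WTATPgs. In DNT it had 41.0, 43.0 and 42.9 CPM, and in ADO 78.5, 82.9 and 80.1 CPM. The groups did not overlap in either set, and WT was above DNT in all libraries. The fold change of Pde4b was 2.34 with ATPgs (log2 1.23 ± 0.05, edgeR adjusted p = 1.08e-06) and 1.90 with adenosine (log2 0.93 ± 0.04, edgeR adjusted p = 2.19e-24). Changes as large were seen in 4.35% and 5.14% of the genes tested. Replicate 3 of WTATPgs was again the lowest of its group. Both PDE4 genes kept their direction and their call in all 17 alternatives of each of these comparisons.

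In the inhibitor set both genes had lower CPM than in the other sets, each scaled on its own, and their changes were less certain. Pde4b had 20.4, 19.8 and 15.01 CPM in R and 29.6, 28.2 and 30.9 CPM in RA. Pde4d had 4.47, 6.94 and 4.90 CPM in R and 8.48, 9.26 and 8.48 CPM in RA. For both genes each RA library was above each R library, which was so for 10.1% of all genes tested in that set. The log2 change was 0.68 ± 0.17 for Pde4b (edgeR adjusted p = 0.109; unadjusted 0.00291) and 0.68 ± 0.21 for Pde4d (edgeR adjusted p = 0.193; unadjusted 0.00913), so neither passed. Leaving out single R libraries changed this. Without R replicate 3, the library with the highest ribosomal share, Pde4b passed (0.56, adjusted p = 0.0142), and without R replicate 2, the library with the lowest, Pde4d passed (0.89, adjusted p = 0.0427). DESeq2 called Pde4b (adjusted p = 0.00611), and limma-voom called neither gene. The edgeR fit of all 18 libraries called both (adjusted p = 4.03e-05 for Pde4b and 0.00263 for Pde4d). At an unadjusted p under 0.05, edgeR and DESeq2 each had 3 of the 6 genes and limma-voom 2, where edgeR had 12.4% of all genes tested.

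Pde4a, the other PDE4 gene of the 7, did not rise. It had 18.04, 19.6 and 22.2 CPM in WT and 24.5, 23.4 and 16.6 CPM in WTATPgs, which overlap. Its log2 change with ATPgs was 0.11 ± 0.15 (95% interval -0.25 to 0.47, edgeR adjusted p = 0.624). WTATPgs replicate 3 was the low library here too, and without it the change was 0.26 with an adjusted p of 0.00373. With adenosine Pde4a fell by 0.19 ± 0.07 on the log2 scale (edgeR adjusted p = 0.0172), from 24.09, 24.9 and 25.5 CPM in DNT to 23.99, 19.1 and 21.99 CPM in ADO. The groups did not overlap, though the highest ADO library was just below the lowest DNT library, and the call was lost without ADO replicate 2 (adjusted p = 0.219), without DNT replicate 3 (0.0607), with DESeq2 (0.0552), with library size alone as the scaling (0.0725), in the fit of all 18 libraries (0.485) and in a test against a log2 change of 0.5. In the inhibitor set, Pde4a had 6.82, 10.2 and 7.92 CPM in R and 4.96, 6.38 and 6.50 CPM in RA, and its log2 change of -0.49 ± 0.21 did not pass (edgeR adjusted p = 0.393).

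Pde3b, the member with the highest mean per kb of merged exons, rose by little in both sets. It had 136.2, 136.3 and 139.9 CPM in WT and 157.1, 156.0 and 164.2 CPM in WTATPgs, a log2 change of 0.21 ± 0.04 (edgeR adjusted p = 0.00293). In the adenosine set it went from 128.4, 123.3 and 121.4 CPM in DNT to 145.3, 159.6 and 153.0 CPM in ADO, a log2 change of 0.30 ± 0.03 (edgeR adjusted p = 3.46e-11). The groups did not overlap in either set, yet 54.5% of the genes tested in the ATPgs set and 36.5% in the adenosine set changed by as much. Both calls were lost when all 18 libraries shared an estimate of the spread (adjusted p = 0.303 and 0.129) and in the test against a log2 change of 0.5. In R, Pde3b had 35.4, 47.3 and 26.2 CPM, the largest SD of the 7 genes in that group (10.6 CPM). In the same R libraries the ribosomal protein genes took 12.8%, 10.4% and 15.8% of the counts, and the part of that composition in the Pde3b values was not tested. RA had 41.6, 44.3 and 51.0 CPM, which overlaps R, with a log2 change of 0.33 ± 0.22 (edgeR adjusted p = 0.634).

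Pde8a, which encodes a cyclic AMP-specific enzyme that PDE4 inhibitors do not block, had the largest difference between the ligands. It had 32.0, 31.8 and 31.2 CPM in WT and 57.2, 59.0 and 57.3 CPM in WTATPgs. The groups lay far apart, and replicate 3 of WTATPgs lay between the other two here. Pde8a rose 1.83-fold with ATPgs (log2 0.87 ± 0.05, edgeR adjusted p = 4.96e-06), and 9.41% of the genes tested changed as much. In the adenosine set it had 13.1, 10.8 and 11.9 CPM in DNT and 13.1, 13.8 and 14.1 CPM in ADO, which overlapped. Its log2 change with adenosine was 0.20 ± 0.09 (95% interval 0.019 to 0.38, edgeR adjusted p = 0.0603), and it passed without DNT replicate 1 (adjusted p = 0.0226) and with library size alone as the scaling (0.0198). WT and DNT carry the same labels, but Pde8a was at 31.7 ± 0.417 CPM in WT and 11.9 ± 1.16 CPM in DNT. In the inhibitor set it was low, with 2.96, 2.76 and 1.71 CPM in R and 2.25, 2.27 and 3.44 CPM in RA, and the log2 change was 0.09 ± 0.29 (edgeR adjusted p = 0.951).

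Pde7a, another high-affinity enzyme for cyclic AMP, changed by little. It had 70.0, 71.1 and 71.9 CPM in WT and 63.8, 61.1 and 70.8 CPM in WTATPgs, with an overlap that rested on WTATPgs replicate 3. The log2 change was -0.12 ± 0.06 (95% interval -0.25 to 0.010, edgeR adjusted p = 0.135), and without that library it was -0.19 with an adjusted p of 7.46e-05. With adenosine Pde7a fell by 0.18 ± 0.04 (edgeR adjusted p = 0.000778), from 61.7, 63 and 64.2 CPM in DNT to 52.3, 55.0 and 59.8 CPM in ADO. These groups did not overlap, and 55.8% of the genes tested changed as much. The call was lost in the fit of all 18 libraries (adjusted p = 0.191) and against a log2 change of 0.5. R (24.5, 23.8 and 20.9 CPM) and RA (22.3, 20.1 and 22.6 CPM) overlapped.

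Pde2a was close to undetected. It had 0 to 4 counts per library and 26 counts over all 18 libraries, and all 3 RA libraries were at 0, where a count of 0 allows up to 3. No change of Pde2a could be measured at this depth. Leaving out WTATPgs replicate 3 brought the number of the 6 genes called with ATPgs from 4 to 6, with 5 higher and 1 lower.

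The ranking of the 6 groups differed between the genes. Mean CPM of Pde4b fell in the order WTATPgs, ADO, WT, DNT, RA and R, with every neighbouring pair separate. For Pde4d the order was WTATPgs, ADO, DNT, WT, RA and R, and only DNT and WT overlapped. Pde8a was ordered by set, with WTATPgs and WT above ADO and DNT, which overlapped, and RA and R, which also overlapped, at the bottom. Pde3b ran from WTATPgs through ADO, WT, DNT and RA to R, and Pde7a ran from WT through WTATPgs, DNT, ADO and R to RA. Pde4a was highest in DNT (24.8 ± 0.702 CPM). All 6 genes were lowest in R and RA. With TMM factors computed over all 18 libraries, a choice made after the data were seen, the CPM of the inhibitor set were 1.30 to 1.33 times as high and those of the ATPgs set were 0.859 to 0.867 times as high. Then Pde4b was at 39.3 CPM in RA and 37.1 CPM in DNT, so that pair changed places, and Pde4d was at 7.08 CPM in R and 22.7 CPM in DNT.

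The rise was larger with ATPgs than with adenosine for 3 genes. The difference of the log2 changes was 0.68 ± 0.09 for Pde8a (edgeR adjusted p = 0.00013), 0.49 ± 0.11 for Pde4d (adjusted p = 0.00819) and 0.31 ± 0.06 for Pde4b (adjusted p = 0.00167), from a fit of the 12 libraries of the ATPgs and adenosine sets. Of all 15788 genes tested 17.3% were called, and 8.13% in this direction. For Pde4a (0.31 ± 0.18, 95% interval -0.075 to 0.69), Pde3b (-0.08 ± 0.06, interval -0.20 to 0.045) and Pde7a (0.06 ± 0.08, interval -0.12 to 0.24) the difference did not pass. Without WTATPgs replicate 3 the count was 5, with Pde4a (0.45, adjusted p = 0.00055) and Pde3b (-0.12, adjusted p = 0.0378) added. In the fit of all 18 libraries the count was 0, with adjusted p = 0.265 for Pde4b, 0.183 for Pde4d and 0.0822 for Pde8a, and against a difference of 0.5 it was also 0. The ligands were used at the same dose and time but in separate sets with their own controls, so ligand and set cannot be told apart here.

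The adenosine changes with and without the inhibitor were compared in a fit of the adenosine and inhibitor sets, which shares the DNT and ADO libraries with the comparison of ligands. None of the 6 genes passed, where 4.06% of 14918 genes were called. The adenosine changes with and without the inhibitor come from separate sets, so inhibitor and set cannot be told apart here. Pde4d came closest, with a change that was smaller under the inhibitor by a log2 difference of -0.71 ± 0.19 (95% interval -1.11 to -0.31, edgeR adjusted p = 0.0533, unadjusted 0.00224). It passed with DESeq2 (adjusted p = 0.0016), with a minimum of 1 CPM (0.0435), with an offset over gene length (0.0151), in the fit of all 18 libraries (0.035), and without R replicate 1 (0.0107) or R replicate 3 (0.00613). In 17 of the 23 alternatives, limma-voom among them, it did not pass. For Pde4b the difference was -0.26 ± 0.14 (95% interval -0.55 to 0.040, edgeR adjusted p = 0.37), and it passed without R replicate 3 (-0.32, adjusted p = 0.0389). The other 4 differences lay between -0.31 for Pde4a and 0.07 for Pde7a. With an unadjusted p under 0.05, edgeR, DESeq2 and limma-voom each had 1 of the 6 genes, and edgeR had 17.5% of all genes tested.

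The other phosphodiesterase genes were mostly at low levels. Of 17 listed, 10 had no group mean of 1 CPM. Pde5a, whose enzyme hydrolyses cyclic GMP, had 2.45 ± 0.566 CPM in WT and 11.6 ± 4.65 CPM in WTATPgs (9.10, 8.82 and 17.01 in its libraries), and 0.456 ± 0.159 CPM in DNT and 3.23 ± 0.664 CPM in ADO. It rose by a log2 change of 2.25 ± 0.32 with ATPgs (edgeR adjusted p = 0.0019) and of 2.80 ± 0.27 with adenosine (adjusted p = 1.55e-12), and it was too low to be tested in the inhibitor set. In the adenosine set Pde6d and Pde11a also rose and Pde4c, a further PDE4 gene, fell from 1.37 ± 0.12 to 0.471 ± 0.094 CPM (log2 -1.53 ± 0.33, edgeR adjusted p = 9.53e-05). The Pde11a call was lost with DESeq2 and without any of 3 libraries (DNT replicates 2 and 3, ADO replicate 3), and that of Pde6d without ADO replicate 2. Pde1b, whose calcium-dependent enzyme takes both cyclic nucleotides, was the highest of the 17 in the ATPgs and adenosine sets and was not called, at 28.8 ± 0.533 CPM in WT and 31.0 ± 3.7 CPM in WTATPgs. In all, 1 of 8 tested genes of this list was called with ATPgs, 4 of 6 with adenosine and 0 of 3 under the inhibitor by edgeR, also at an unadjusted p, where Pde1b had the smallest p. Without WTATPgs replicate 3 the first count was 3 of 9.

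In the list for cyclic AMP synthesis, genes of receptors and G protein subunits changed in both directions. With all 6 libraries of a set, no cyclase was called with either ligand. Of 13 tested receptors, G protein subunits and cyclases, 3 rose and 1 fell with ATPgs, and with adenosine 4 of 11 rose and 1 fell. These shares are below those over all genes tested (37.1% and 50.2% called). Adora2a, the gene of the A2a receptor, fell by 0.27 ± 0.05 on the log2 scale (edgeR adjusted p = 0.00456), from 145.0 ± 1.85 to 120.6 ± 8.17 CPM, and Gnas, which encodes the stimulatory subunit, rose by 0.40 ± 0.09 (adjusted p = 0.00698). Gnai2, which encodes an inhibitory subunit, rose by 0.58 ± 0.05, and Gnal, a relative of Gnas, by 1.12 ± 0.22. With adenosine Adora2a was among the rises, by 0.12 ± 0.03 (edgeR adjusted p = 0.000134). Gnas rose by 0.44 ± 0.07, Gnal by 0.73 ± 0.17 and Gnai2 by 0.29 ± 0.02. Under the inhibitor 0 of 10 passed by edgeR, with 2 at an unadjusted p under 0.05 (DESeq2 called 1 and limma-voom 0), and Adora2a had the smallest p (log2 -0.51 ± 0.15, edgeR adjusted p = 0.171). The list medians were 0.26, 0.08 and 0.02. Without WTATPgs replicate 3, 7 rose and 2 fell with ATPgs, and without R replicate 3, 2 fell under the inhibitor.

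Among 12 genes that bind or export cyclic AMP or act on protein kinase A, Pkib had the smallest p with each ligand. Pkib encodes an inhibitor of protein kinase A, and it had 8.12 ± 0.396 CPM in WT and 20.5 ± 3.97 CPM in WTATPgs, 0.611 ± 0.217 CPM in DNT and 2.96 ± 0.743 CPM in ADO, and 0.682 ± 0.248 CPM in R and 3.12 ± 0.165 CPM in RA. Its log2 change was 1.33 ± 0.15 with ATPgs, 2.27 ± 0.27 with adenosine and 2.16 ± 0.30 under the inhibitor (edgeR adjusted p = 0.000254, 4.84e-10 and 0.00734). It was the only one of 9 tested genes of its list called under the inhibitor, and that call was lost without RA replicate 1 or RA replicate 3. The test of its change with against without the inhibitor gave -0.11 ± 0.41 (95% interval -0.996 to 0.77). Abcc4, which exports cyclic AMP, fell by 0.43 ± 0.06 with ATPgs. Prkar1a, a regulatory subunit of protein kinase A, rose by 0.15 ± 0.03 with ATPgs and by 0.08 ± 0.02 with adenosine. In all, 3 of 9 rose and 1 fell with ATPgs (Prkaca, the rise with the largest p, was lost with DESeq2, with no filter, with the replicate block and without any single library but WTATPgs replicate 1), and 5 of 10 rose and 2 fell with adenosine, where 37.1% and 50.2% of all genes were called, with list medians of 0.15 and 0.09.

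The list of 17 genes for the anchoring of phosphodiesterases or protein kinase A went both ways. It also holds Prkar1a, the regulatory subunit named above, so the rises of that gene count in both lists. With ATPgs 6 rose and 3 fell, and with adenosine 5 rose and 7 fell (4 with library size alone as the scaling or without DNT replicate 3), on the same backgrounds of 37.1% and 50.2%. Akap13, an anchoring protein, rose from 367.2 ± 4.06 to 654.1 ± 25.6 CPM with ATPgs (log2 0.83 ± 0.04) and from 309.4 ± 2 to 433.9 ± 8.07 CPM with adenosine (0.49 ± 0.02). Ezr, which encodes ezrin, a linker between membrane and actin that also anchors protein kinase A, rose by 0.69 ± 0.04 and 0.44 ± 0.02. Akap8 fell by 0.35 ± 0.03 and by 0.28 ± 0.02, and Akap1 fell by 0.52 ± 0.05 and by 0.31 ± 0.04. Arrb1, encoding a beta-arrestin that brings PDE4 enzymes to receptors, rose by 0.78 ± 0.15 with ATPgs and by 1.02 ± 0.06 with adenosine. Under the inhibitor 0 of 15 passed by edgeR, DESeq2 and limma-voom, with 2 at an unadjusted p under 0.05 by edgeR, and the smallest p belonged to Akap9 (log2 0.46 ± 0.18, edgeR adjusted p = 0.321). Pde4dip, an anchor of PDE4 enzymes, had 20.1 ± 8.08 CPM in R and 31.7 ± 1.05 CPM in RA and did not pass (edgeR adjusted p = 0.353).

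Most of the CREB target genes listed here rose with both ligands. Of 13 tested, 12 rose and 0 fell with ATPgs, and 9 rose and 3 fell with adenosine, with medians of 0.85 and 0.31. Over all genes tested 17.7% were called higher with ATPgs and 25.5% with adenosine. The list was chosen with earlier results of these data known, so its counts beside these shares are a description. Crem, a CREB family gene that cyclic AMP induces, rose from 118.0 ± 2.32 to 341.3 ± 6.16 CPM with ATPgs (log2 1.53 ± 0.04) and from 91.5 ± 2.74 to 216.0 ± 5.71 CPM with adenosine (1.24 ± 0.03). Rgs2, a regulator of G protein signalling, rose by 1.88 ± 0.07 and 1.62 ± 0.04. Areg and Dusp1, a growth factor and a phosphatase, rose by 1.56 ± 0.08 and 1.88 ± 0.23 with ATPgs. With adenosine they rose by 1.52 ± 0.07 and 0.56 ± 0.09. The nuclear receptor gene Nr4a1 rose by 0.56 ± 0.14 with ATPgs and by 0.51 ± 0.02 with adenosine. Gem, a small GTPase gene, fell by 0.55 ± 0.02 with adenosine and was not called with ATPgs. With ATPgs the count was 9 when any library other than WTATPgs replicate 3 was left out. The test of the difference between ligands called 9 of the 13 higher with ATPgs. Under the inhibitor 0 of 13 passed by edgeR, with 4 at an unadjusted p under 0.05 (DESeq2 called 3 lower and limma-voom 0), and without R replicate 3 the counts were 1 higher and 5 lower. Crem had 67.9 ± 24.9 CPM in R and 93.3 ± 3.79 CPM in RA (log2 0.46 ± 0.24, edgeR adjusted p = 0.489).

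The test of the adenosine change with against without the inhibitor called 3 of 13 CREB targets and 2 of 11 genes of cyclic AMP synthesis, all lower under the inhibitor, and none of the other phosphodiesterases, effectors or anchors, on the background of 4.06%. The difference was -1.82 ± 0.27 for Rgs2 (edgeR adjusted p = 0.0025), -1.08 ± 0.20 for Fos (adjusted p = 0.009), -1.15 ± 0.28 for Dusp1 (adjusted p = 0.0407), -0.65 ± 0.13 for Adora2a (adjusted p = 0.0126) and -0.67 ± 0.16 for Gnai2 (adjusted p = 0.0334). With library size alone as the scaling, with the replicate block, or against a difference of 0.5, the calls of Fos, Dusp1, Adora2a and Gnai2 were lost. The calls of Dusp1 and Gnai2 were also lost without any single DNT, ADO or RA library, and that of Adora2a without DNT replicate 1. With no filter on low counts Adora2a and Gnai2 were not called, and with limma-voom weights per group Fos was not. In these differences too, inhibitor and set cannot be told apart.

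Sharing the spread over all 18 libraries in a single fit moved calls in these lists. Of the genes named for their small p with adenosine, Akap13, Adora2a, Gnai2, Prkar1a, Pde6d and Pde11a lost that call. Of those named so with ATPgs, Prkar1a and Prkaca lost theirs. Under the inhibitor that fit called Akap9, Akap11, Pde4dip and Areg higher and Adora2a, Gnai2, Gem, Nr4a2 and Junb lower, beside Pkib. The adenosine counts for the CREB targets were then 5 higher and 1 lower, and those for the anchors 3 higher and 2 lower, while 4 CREB targets were called higher with ATPgs than with adenosine.

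**Figure D4:**
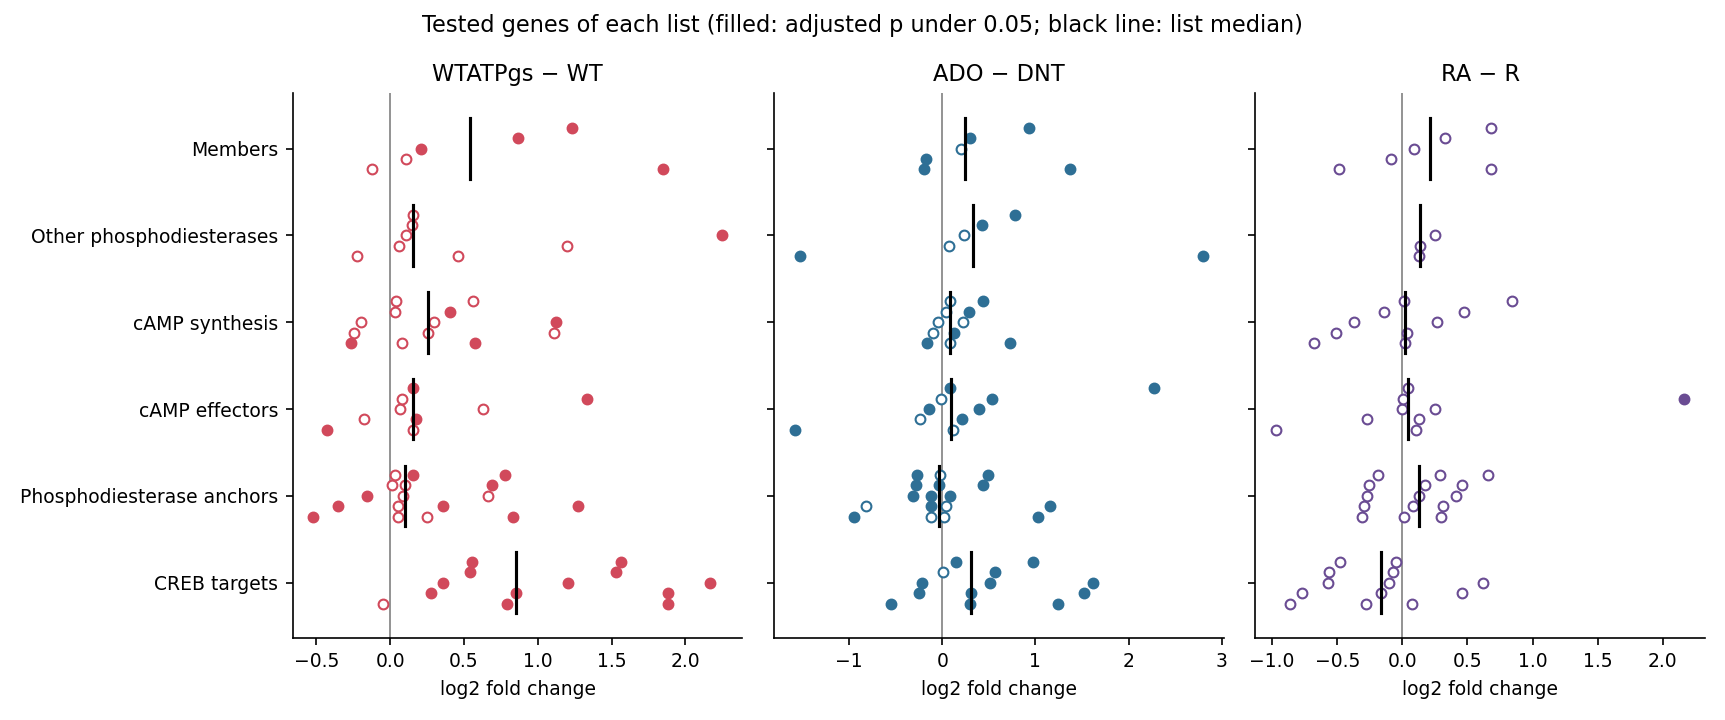
Log2 fold change of every tested gene in each list and comparison (1 point per gene, filled where the edgeR adjusted p is under 0.05, black line at the list median; x axes differ between panels). The CREB targets lie to the right with ATPgs, with 12 of 13 filled, and under the inhibitor the only filled point is Pkib.

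The genes most like a member were sought among 9372 genes by Pearson's r over the 18 libraries, on log2 CPM centred within each set. Since the libraries share sets and ligands, r describes a pattern and has no test. For Pde4b these were Crybg1 (0.991), Txnip (0.990) and Dgat1 (0.986), and for Pde4d they were Lmtk3 (0.984), Vgf (0.982) and Pkd1l2 (0.980). Txnip, an inhibitor of thioredoxin, changed by log2 1.87, 1.27 and 0.72 with ATPgs, with adenosine and under the inhibitor, and Dgat1, an enzyme of triglyceride synthesis, by 2.25, 1.72 and 1.17. Vgf, a gene of a secreted neuropeptide precursor, changed by 2.96, 1.84 and 0.75. Pde4b and Pde4d had an r of 0.967 with each other. Pde3b was most like Crkl (0.950), Ostm1 and Abcc5, Pde7a most like Slc7a3 (0.883), Elp6 and Picalm, and Pde4a most like Acvr2a (0.858), Zc3h12a and Egr1. Pde4a had an r of -0.27 with Pde4b and -0.11 with Pde4d, and Pde7a had -0.58 and -0.68.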

How the data were processed

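The authors deposited 3 tables of whole-number read counts per Ensembl gene, 1 column per library. Per the submitters' processing notes, HISAT2 2.1.0 and GRCm38 were used. The counter, the gene annotation and whether counting used strand were not given in the sources used here, so reads of overlapping antisense genes cannot be assigned. Groups came from the sample labels. GENCODE M21 gave symbols, coordinates and exon lengths, and matched 99.6% to 99.7% of the IDs. RefSeq gave promoter windows.

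Each ligand was compared within its set of 6 libraries with edgeR 4.0.16 in R 4.3.3 (TMM, filterByExpr by group, two-sided quasi-likelihood test with robust dispersion, p adjusted over all genes tested by Benjamini-Hochberg, threshold 0.05). Differences between changes were contrasts in fits of 12 libraries. CPM were scaled with TMM factors of the own set. Shares of counts are unscaled. CPM per kb is CPM divided by merged exon length. The self-test ran edgeR on simulated data. The members and gene lists were chosen with earlier results of these data known. In each list, the 4 genes with the smallest p and at least 1 CPM in a group may be named, and genes alike are the 3 with the highest r among genes with a mean of at least 5 CPM. Those of Pde8a are not reported here. Pde1b as the highest other gene, Crem and Pde4dip under the inhibitor, Prkaca, and the genes called in the inhibitor difference were chosen after their values were seen. Alternatives were DESeq2 1.42.0, limma-voom 3.58.1, other scalings, filters, fits and lengths, and leaving out each library. No library was left out of the reported values.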

Additional observations from a re-analysis of the deposited data

Results flagged for a closer look

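For 3 of the 7 genes the change with ATPgs differed from the change with adenosine in the test of the difference itself (edgeR, 12 libraries). The difference of the log2 changes, ATPgs minus adenosine, was 0.31 for Pde4b, 0.49 for Pde4d and 0.68 for Pde8a, positive in each. For Pde8a it rests on a rise from 31.7 to 57.8 CPM in the ATPgs set and on 11.9 against 13.7 CPM in the adenosine set. The ligands were tested in separate sets, and ligand and set cannot be told apart.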

How the results depend on the processing

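Over 582 alternative values of the members' changes and differences, 535 kept direction and call, 18 lost the call, 19 gained it and 10 changed sign, all 10 of them around changes that had not passed. Under the inhibitor Pde7a turned to 0.027 with library size alone, and Pde8a to -0.10 without R replicate 3 and -0.15 without RA replicate 3 (range -0.15 to 0.23 with single libraries left out). In the comparison with and without the inhibitor, Pde3b turned to -0.0026 with the length offset and lay between -0.11 and 0.31 when single libraries were left out, and Pde8a turned to 0.0084 without R replicate 2 (range -0.35 to 0.0084). In the comparison of ligands, Pde7a turned to -0.017 without WTATPgs replicate 3 (range -0.017 to 0.11).

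Members called with adenosine numbered 2 in the fit of all 18 libraries and 2 against a log2 change of 0.5. Under the inhibitor the count was 1 with DESeq2, 1 with no filter and 2 with all 18 libraries, and 0 to 1 with single libraries left out. For the difference with the inhibitor it was 1 with DESeq2, with the 1 CPM filter, with all 18 libraries and with the length offset, and 0 to 2 with single libraries left out. For the difference of ligands it was 0 with all 18 libraries and 0 against 0.5, and 3 to 5 with single libraries left out.

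Of all genes, 5612 were called with ATPgs, 3299 with all 18 libraries and 659 against 0.5. For adenosine these were 7281, 2309 and 776. Under the inhibitor 147 were called, 533 with DESeq2, 73 with library size alone, 485 with no filter, 1778 with all 18 libraries, 253 with the length offset and 66 against 0.5. Without R replicate 3 it was 1719, without R replicate 1 it was 48 and without RA replicates 1, 2 or 3 it was 36, 45 or 38. For the difference with the inhibitor 605 were called, 1388 with DESeq2, 240 with library size alone, 1009 with all 18 libraries and 133 against 0.5. It was 1482 without R replicate 2, 3050 without R replicate 3 and 280 to 372 without any DNT, ADO or RA library. For the difference of ligands 2724 were called, 302 with all 18 libraries, 101 against 0.5 and 1943 to 5367 with single libraries left out, the highest without WTATPgs replicate 3. The cause was not tested. With library size alone the split of higher and lower calls moved from 2678 and 2934 to 3226 and 2331 with ATPgs, and from 3707 and 3574 to 4418 and 2850 with adenosine.

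Replicate numbers did not pair the libraries. Same-numbered libraries had correlations of their deviations from -0.02 to 0.0007 in the ATPgs set, -0.0002 to 0.023 in the adenosine set and -0.20 to 0.052 in the inhibitor set. With the replicate number as a block, 4, 5, 0, 0 and 3 members were called in the 5 comparisons, as without it, and 160 in place of 605 genes were called for the difference with the inhibitor.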
